A study of Mus musculus with 2 samples.

Results

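The genes described here are the 9 microRNA hairpins of the miR-99/100, let-7 and miR-125 clusters of the mouse, in which a miR-99/100 hairpin, a let-7 hairpin and a miR-125 hairpin follow each other on the same strand. They were chosen by name: Mir99a, Mirlet7c-1 and Mir125b-2 on chromosome 16, Mir100, Mirlet7a-2 and Mir125b-1 on chromosome 9, and Mir99b, Mirlet7e and Mir125a on chromosome 17. They make up 9 of the 1973 gene rows of the deposited count tables. Mirlet7e was counted on the strand opposite to the row of Gm25927, a hairpin annotated on the other strand over the same bases, and this row had 0 reads on its own strand in both libraries. The data are microRNA sequencing of hindbrain, the part of the brain that forms the cerebellum, pons and medulla, from B6NCrl mouse embryos at day 15.5. There are 2 libraries, both biological replicates of 1 group. Replicate 1 pooled the tissue of 78 embryos and replicate 2 that of 62, both of mixed sex and under the same donor label. No treatment or mutation is named, and the size range of the RNA is given as below 30, without a unit. No label says whether the pools came from separate litters, so the spread between libraries may be partly technical. The comparisons below are therefore between hairpins, and between the 2 pools.

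MicroRNAs are cut from hairpin transcripts, first in the nucleus by Drosha and then in the cytoplasm by Dicer, and the mature strand guides Argonaute to messenger RNAs that pair with its seed. The let-7 family, first found as a gene of developmental timing in the worm Caenorhabditis elegans, accumulates as progenitors differentiate, and the RNA-binding protein LIN28 blocks its maturation. The miR-125 family is the vertebrate kin of worm lin-4, another timing gene, and LIN28 itself is among its targets. The miR-99/100 family is related to miR-10 and is known to repress Mtor and Igf1r in the growth pathway. The joint arrangement of these families in clusters is old, and the hairpins of a cluster are generally thought to come from a long shared primary transcript.

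The mature sequences show which hairpins can be told apart by a read, and they are printed 5′ to 3′ with the seed, bases 2 to 8, in capitals. They are RefSeq sequences on build GRCm38.p6. At least 1 mature sequence was found for 9 of the 9 genes, and let-7a-5p is listed under Mirlet7a-1. The 5p strands, cut from the first arm of the hairpin and carrying the family seeds, are these.
miR-99a-5p: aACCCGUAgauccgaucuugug
miR-100-5p: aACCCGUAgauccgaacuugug
miR-99b-5p: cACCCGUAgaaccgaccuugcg
let-7c-5p: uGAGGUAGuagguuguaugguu
let-7a-5p: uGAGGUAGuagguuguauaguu
let-7e-5p: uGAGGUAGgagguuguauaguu
miR-125b-5p: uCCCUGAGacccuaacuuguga
miR-125a-5p: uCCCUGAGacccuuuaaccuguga

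These 8 sequences hold 3 seeds, 1 for each family and the same in each cluster. Positions below are counted from 1 at the 5′ end, with the base of the first sequence named first. From miR-99a-5p to miR-100-5p there is 1 difference, U16A. From miR-99a-5p to miR-99b-5p there are 4, A1C, U11A, U16C and U21C. From let-7c-5p to let-7a-5p the difference is G19A, and from let-7a-5p to let-7e-5p it is U9G. The miR-125b-5p and miR-125a-5p sequences share their first 13 bases and differ in length, at 22 and 24 nt.

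Of the 9 hairpins, 4 hold a 5p sequence that also lies in a hairpin elsewhere in the genome. Among the 2202 microRNA hairpins of GENCODE M21, let-7c-5p was found in Mirlet7c-1 and Mirlet7c-2, let-7a-5p in Mirlet7a-1 and Mirlet7a-2, and miR-125b-5p in Mir125b-1 and Mir125b-2. The longest stretch shared with another locus was 23 nt for Mirlet7c-1 and Mirlet7a-2 and 24 nt for Mir125b-1 and Mir125b-2. Mir99a, Mir100, Mir99b, Mirlet7e and Mir125a shared no stretch of 20 nt or more, and their longest exact matches were 11 to 17 nt. The 3p strands differ between copies: each of the 9 listed 3p sequences of these genes was found in 1 hairpin. The 3p strands of the 4 hairpins with a shared 5p sequence are shown for that reason.
let-7c-1-3p: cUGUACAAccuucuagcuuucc
let-7a-2-3p: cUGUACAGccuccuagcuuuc
miR-125b-2-3p: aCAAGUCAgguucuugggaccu
miR-125b-1-3p: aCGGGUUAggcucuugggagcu

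A row of the tables counts reads over the whole hairpin, so reads of the 5p and 3p strands are not separated. Reads placed at several loci are listed as a total apart from the genes, 35.4% of all reads in replicate 1 and 34.2% in replicate 2. How many of them come from let-7c, let-7a or miR-125b is not known, and the reads assigned to these 4 hairpins leave them out.

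The clusters differ in their spacing. On chromosome 17 the hairpins lie within 692 bases: Mir99b (ENSMUSG00000065396.1) from 17830188 to 17830257, Mirlet7e from 17830352 to 17830444 and Mir125a (ENSMUSG00000065479.1) from 17830812 to 17830879. They lie on the plus strand of mm10, inside the protein-coding gene Spaca6, where Mir99b and Mirlet7e are intronic and Mir125a overlaps an annotated exon. The cluster on chromosome 16 spans 47408 bases, with Mir99a (ENSMUSG00000065530.1) from 77598936 to 77599000 and Mirlet7c-1 (ENSMUSG00000065557.2) from 77599657 to 77599750. Mir125b-2 (ENSMUSG00000065472.1), from 77646273 to 77646343, stands 46522 bases downstream of Mirlet7c-1. All 3 lie in introns of the noncoding host gene Mir99ahg, with introns of Gm11146 on the opposite strand for Mir99a and Mirlet7c-1, and Mir125b-2 also overlaps C130023A14Rik, an annotated transcript still to be tested experimentally. The cluster on chromosome 9 spans 50578 bases, with Mir100 (ENSMUSG00000093011.1) from 41531425 to 41531504 and Mirlet7a-2 (ENSMUSG00000092770.1) from 41536716 to 41536811. Mir125b-1 (ENSMUSG00000093354.1) follows at 41581926 to 41582002, after a gap of 45114 bases. Its hairpins lie in introns of the noncoding genes 3110039I08Rik and Gm49317, and Mir125b-1 also lies in an exon of Gm28119. Mir100 has an exon of the lincRNA Gm48742 on the opposite strand. No other hairpin row of the tables lies within 10000 bases of these genes.

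**Figure D1:**
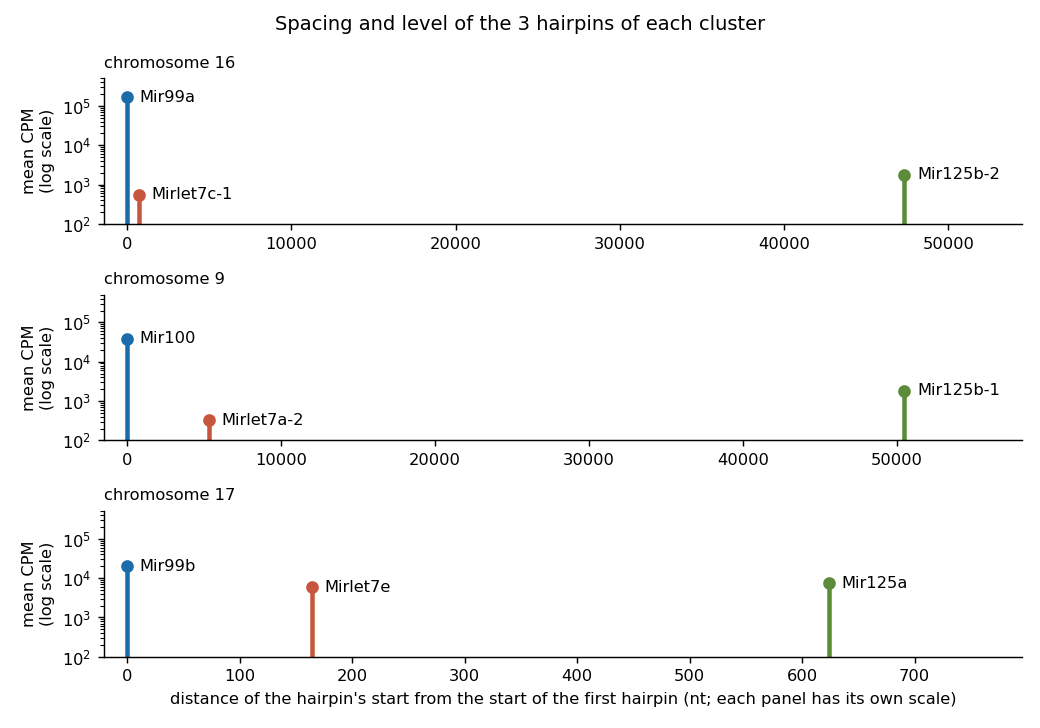
Mean level (CPM, log axis) of each hairpin against the distance of its start from the first hairpin of its cluster, in nt, with a scale of its own in each panel. The miR-125b hairpins stand far from the other hairpins of their clusters, while the cluster on chromosome 17 fits within 692 bases. The miR-99/100 hairpin comes first and is highest in each, by levels that leave out reads placed at several loci.

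The libraries held 8327917 reads in replicate 1 and 10507754 in replicate 2. Levels are given in CPM, the reads of a gene per 1000000 reads on the genes' own strand with those of Mirlet7e added. That base was 3961411 reads in replicate 1 and 4868472 in replicate 2. By counting error alone, a count of 0 allows up to 3 reads, which is 0.757 CPM in the library of replicate 1 and 0.616 CPM in that of replicate 2. The tissue label was set against the Hox cluster microRNAs, which mark the hindbrain and more caudal levels: the 6 genes together held 9.15% of gene reads in replicate 1 and 13.2% in replicate 2. Most of this came from Mir10a and Mir10b, which held 9.03% and 12.96%. Neural microRNAs (9 measured genes) held 3.21% and 3.33%, most of it from Mir149 at 20216 ± 295 CPM and Mir137 at 8311 ± 634 CPM. The brain-enriched Mir124a-1, Mir124a-2, Mir124a-3 and Mir9-2, whose mature sequences come from several loci, had 6 to 21 reads in a library. Mir9-3, of the same list, had 1991 reads in replicate 1 and 3125 in replicate 2. Mir128-1 and Mir128-2, which share a mature sequence, averaged 2319 and 1297 CPM. Striated muscle microRNAs (5 measured) held 0.00270% and 0.00232%, all of it from Mir206 with 107 and 113 reads. Mir133b, Mir1a-1 and both Mir133a genes had 0 reads. Mir1a and Mir133a also have several loci, so their zeros do not show that muscle RNA was absent.

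Together the 9 hairpins held 24.2% ± 1.02 of the gene reads (mean and SD, n = 2), 24.9% in replicate 1 and 23.5% in replicate 2. By assigned reads, almost all of this came from the miR-99/100 family at 22.4% ± 1.098. The miR-125 hairpins held 1.098% ± 0.0764 and the let-7 hairpins 0.681% ± 0.000660. By cluster, chromosome 16 held 16.8% ± 0.774, chromosome 9 held 4.09% ± 0.216 and chromosome 17 held 3.33% ± 0.0316. These shares leave out reads placed at several loci. Some let-7 and miR-125 hairpins share a mature sequence with another annotated hairpin, and no miR-99/100 hairpin does. The families are therefore not counted alike, and the part of this in their difference was not tested. In bulk tissue, fewer cells of a type and less RNA per cell cannot be told apart, and this holds for every level given here.

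The miR-99/100 hairpins led each cluster by assigned reads. Mir99a had 676671 reads in replicate 1 and 778312 in replicate 2, or 170816 and 159868 CPM, and ranked 1 among the 1973 rows. Mir100 had 159436 and 181289 reads, or 40247 and 37237 CPM, and ranked 7. Mir99b had 82363 and 93546 reads, or 20791 and 19215 CPM, and ranked 12. Within this family the ranges of the libraries did not overlap. Reads of Mir99a exceeded those of Mir100 4.24-fold in replicate 1 and 4.29-fold in replicate 2. Reads of Mir100 exceeded those of Mir99b 1.94-fold in each library. Per nucleotide of annotated hairpin the order was the same, with 2544 ± 119 CPM per nt for Mir99a, 484 ± 26.6 for Mir100 and 286 ± 15.9 for Mir99b.

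By assigned reads, the let-7 hairpins were the lowest in each cluster. Mirlet7e had 23571 and 28825 reads in replicates 1 and 2, or 5950.2 and 5921 CPM. Mirlet7c-1 had 2128 and 2815 reads, or 537 and 578 CPM, and Mirlet7a-2 had 1276 and 1557 reads, or 322 and 319.8 CPM. The last of these ranked 146 among all rows, next to rank 32 for Mirlet7e. The levels of these 3 hairpins did not overlap. Per nucleotide they were 63.8 ± 0.224 CPM per nt for Mirlet7e, 5.93 ± 0.309 for Mirlet7c-1 and 3.34 ± 0.0169 for Mirlet7a-2.

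Among the miR-125 hairpins, Mir125a was the highest by assigned reads. It had 26919 and 38729 reads in replicates 1 and 2, or 6795 and 7955 CPM, the widest relative spread of the 9 hairpins with a coefficient of variation of 11.1%. Mir125b-1 had 7240 and 8678 reads, or 1828 and 1782 CPM, and Mir125b-2 had 7213 and 8700 reads, or 1821 and 1787 CPM. The last pair could not be ordered in either library: the ratio of Mir125b-1 over Mir125b-2 was 1.00 in replicate 1 (95% exact interval 0.971 to 1.04) and 0.997 in replicate 2 (0.968 to 1.03). In the order of all 9 levels, from Mir99a through Mir100, Mir99b, Mir125a, Mirlet7e, the miR-125b pair and Mirlet7c-1 to Mirlet7a-2, this was the only pair of neighbours whose libraries overlapped. The intervals cover counting error only, as reads without molecular identifiers are not independent molecules.

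**Figure D2:**
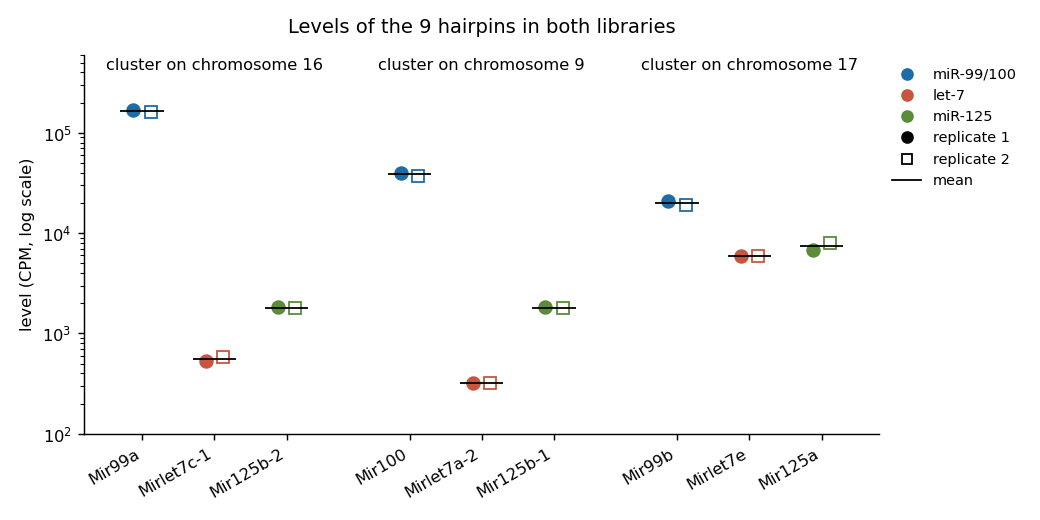
Level (CPM, log axis) of each of the 9 hairpins in replicate 1 (filled circles) and replicate 2 (open squares), with the mean as a line and the family as colour. The order miR-99/100, miR-125, let-7 is the same in each cluster, with Mir99a at 170816 and 159868 CPM and Mirlet7a-2 at 322 and 319.8 CPM. Levels leave out reads placed at several loci, which concerns the miR-125b, let-7c and let-7a hairpins.

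The hairpins of a cluster were then compared with each other within each library, as the ratio of their reads. A read covers a mature microRNA and not the hairpin, so its count need not scale with hairpin length. Ratios per nucleotide of hairpin are given beside those of reads as another unit, not as a correction. In the chromosome 16 cluster, Mir99a exceeded Mirlet7c-1 in reads 318-fold in replicate 1 (304.7 to 332) and 276-fold in replicate 2 (266 to 287), or 430-fold per nucleotide on average. Mir99a exceeded Mir125b-2 93.8-fold (91.7 to 96.0) and 89.5-fold (87.6 to 91.4), or 100.1-fold per nucleotide. Mir125b-2 exceeded Mirlet7c-1 3.39-fold (3.23 to 3.56) and 3.09-fold (2.96 to 3.23), or 4.29-fold per nucleotide. Mir99a thus held 98.6% ± 0.0681 of the reads assigned to the cluster, with reads placed at several loci left out.

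On chromosome 9 the same order held. The ratios of the miR-99/100 hairpin over the others were smaller than on chromosome 16, and that of the miR-125b over the let-7 hairpin was larger. Mir100 exceeded Mirlet7a-2 in reads 125-fold in replicate 1 (118 to 132) and 116-fold in replicate 2 (111 to 122), or 145-fold per nucleotide. Mir100 exceeded Mir125b-1 22.02-fold (21.5 to 22.5) and 20.9-fold (20.4 to 21.3), or 20.7-fold per nucleotide. Mir125b-1 exceeded Mirlet7a-2 5.67-fold (5.35 to 6.03) and 5.57-fold (5.28 to 5.89), or 7.01-fold per nucleotide. Of the reads assigned to this cluster, again without reads placed at several loci, Mir100 held 94.8% ± 0.193, Mir125b-1 4.42% ± 0.156 and Mirlet7a-2 0.786% ± 0.0376.

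The chromosome 17 cluster was far more even. Mir99b exceeded Mirlet7e in reads 3.49-fold in replicate 1 (3.44 to 3.55) and 3.25-fold in replicate 2 (3.20 to 3.29), or 4.48-fold per nucleotide. Mir99b exceeded Mir125a 3.06-fold (3.02 to 3.10) and 2.42-fold (2.39 to 2.44), or 2.66-fold per nucleotide. Mir125a exceeded Mirlet7e 1.14-fold (1.12 to 1.16) and 1.34-fold (1.32 to 1.36), or 1.70-fold per nucleotide. Mir99b supplied 60.03% ± 2.78 of the reads, Mir125a 22.2% ± 2.67 and Mirlet7e 17.8% ± 0.106. In all 9 ratios the levels of the numerator and denominator did not overlap between libraries, though with 2 libraries no permutation test could pass 0.05 and no p is given.

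The even cluster is the one whose 3 hairpins share no stretch of 20 nt with another locus. In the other clusters the let-7 and miR-125b hairpins share their 5p sequence with another locus and the miR-99/100 hairpin does not. Reads placed at several loci are counted for no gene, and their part in the difference between the clusters was not tested. Among the 427 genes that reached 10 reads in a library, 92 share at least 20 nt with another microRNA gene. Their median was 137 CPM, against 81.4 CPM for the 335 that share less. The highest level was 34443 CPM among the 92 and 165342 CPM among the 335, and the 92 held 9.77% of gene reads against 90.2%. The 427 were picked by counts that leave out reads placed at several loci, so these values cannot show how many reads are missing.

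The pairs of loci with the same mature sequence were set side by side. Their counts leave out reads placed at several loci. The folds therefore do not show how much of a shared mature sequence each copy supplied. Mir125b-1 and Mir125b-2 lie on different chromosomes and differed by a ratio of 1.00 and 0.997 in reads. Mirlet7a-2 had 1276 and 1557 reads, against 1366 and 1722 for Mirlet7a-1, folds of 1.07 and 1.11 in favour of Mirlet7a-1. Mirlet7c-1 had 2128 and 2815 reads, against 3249 and 4546 for Mirlet7c-2, folds of 1.53 and 1.61 in favour of Mirlet7c-2. Over the 19 pairs of genes that share a mature sequence and had at least 10 reads in each library, the median fold between copies was 2.39 in replicate 1 and 2.64 in replicate 2. The Mir125b pair was the only one of the 19 within 1.1-fold in both libraries. This comparison of copies was chosen after the values were seen.

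The 3 let-7 hairpins were placed among the whole let-7 family. Outside the clusters 8 of 11 listed let-7 genes were measured and held 13.2% ± 0.481 of gene reads, led by Mirlet7g (60830.2 ± 2422 CPM), Mirlet7i (46166 ± 2003 CPM) and Mirlet7d (8680 ± 250 CPM). Of the 11 let-7 genes measured in all, 6 have a 5p sequence found in 1 hairpin, and these ranged from 4591 to 62543 CPM. The other 5 have one found in 2 hairpins and ranged from 319.8 to 2885 CPM, so the ranges did not overlap. Per nucleotide of hairpin the ranges were 45.6 to 691 and 3.34 to 33.9 CPM per nt. Mirlet7e belongs to the first set and Mirlet7c-1 and Mirlet7a-2 to the second. The counts of the 5 leave out reads placed at several loci, so the 2 sets are not counted alike. The part of this in the split was not tested. This split is a description over 11 genes of 2 libraries, and it was chosen after the values were seen.

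**Figure D3:**
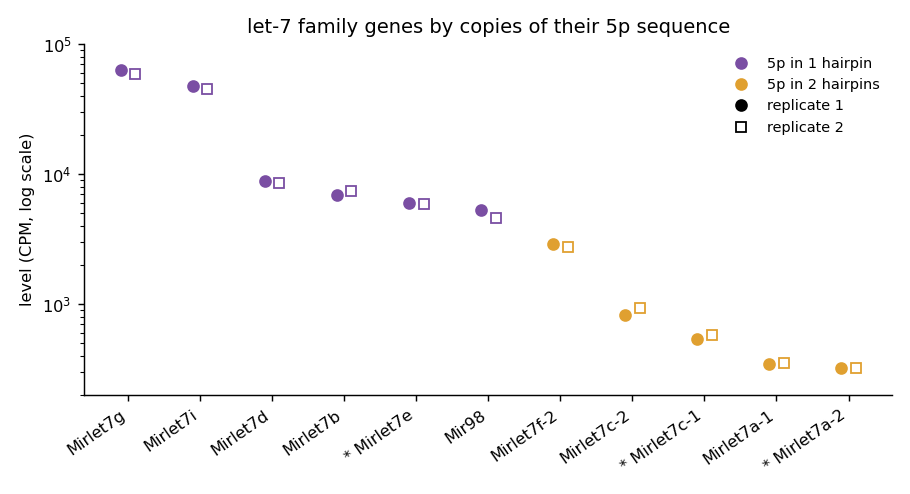
Level (CPM, log axis) of the 11 measured let-7 genes in replicate 1 (filled circles) and replicate 2 (open squares), coloured by the number of annotated hairpins that hold their 5p sequence; asterisks mark the 3 genes of the clusters. The 6 genes with a 5p sequence in 1 hairpin lie above the 5 with one in 2 hairpins, whose counts leave out reads placed at several loci.

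The range within each cluster was set beside those of other microRNA clusters, taken as hairpins on 1 strand with at least 3 members of at least 10 reads in both libraries. With gaps of at most 10000 bases, 15 clusters were found, with a median fold of 46.9 between their highest and lowest hairpin in reads. The chromosome 17 cluster, at 3.37-fold, ranked 14 of 15, above the cluster from Mir294 to Mir292 at 1.80-fold. The clusters on chromosomes 16 and 9 were broken by their gaps at that limit. When gaps of up to 60000 bases were admitted, a limit chosen after seeing the data, 18 clusters were found with a median of 74.1-fold. Of these the chromosome 16 cluster ranked 7 at 297-fold, the chromosome 9 cluster 8 at 121-fold and the chromosome 17 cluster 16. Among the 9 clusters with 3 members, whose median was 6.25-fold, the first 2 of these had the widest ranges, next to Mir23a and Mir27a at 118-fold. These folds include hairpins that share at least 20 nt with another microRNA gene. Without such hairpins the clusters on chromosomes 16 and 9 keep 1 hairpin each and have no range, the one of Mir23a keeps 0, and the widest, from Mir127 to Mir3070a, has a range of 745-fold in place of 2591. The chromosome 17 cluster keeps its 3 hairpins and its 3.37-fold range. None of these values is per nucleotide.

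**Figure D4:**
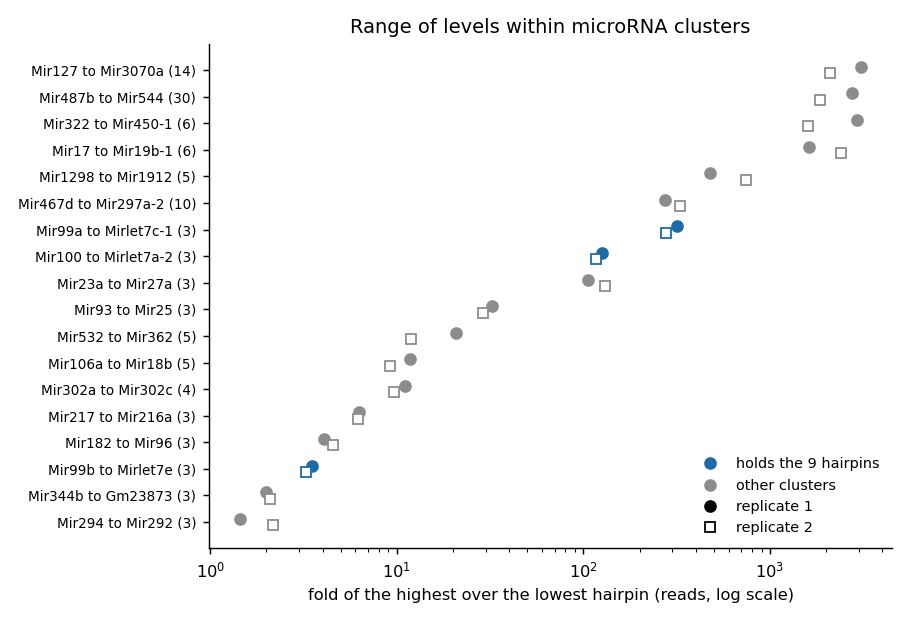
Fold of the highest over the lowest hairpin (reads, log axis) in replicate 1 (filled circles) and replicate 2 (open squares) for 18 microRNA clusters with gaps of up to 60000 bases, named by their highest and lowest hairpin with the number of hairpins in brackets. The clusters of the 9 hairpins, in blue, lie at 297, 121 and 3.37-fold on average. Reads placed at several loci are left out.

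Genes at levels like those of the leading hairpins were found by the larger of the 2 absolute log2 CPM differences over the 2 libraries. The nearest to Mir100 were Mir335 (39086 ± 3967 CPM, difference 0.06) and Mir487b (34443 ± 1647 CPM, 0.18). The nearest to Mir99b were Mir149 (20216 ± 295 CPM, 0.06) and Mir30e (18686 ± 142 CPM, 0.16). Mir99a had no close neighbour: the nearest were Mirlet7g at a difference of 1.45 and Mir10a (70838 ± 14855 CPM) at 1.501.

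The pools were compared by the log2 ratio of replicate 1 over replicate 2 after TMM scaling, a scaling for library composition. Each gene had an exact two-sided conditional binomial test with Benjamini-Hochberg adjustment over 427 genes that reached 10 reads in at least 1 library. It sets 1 library against the other and takes in no error beyond counting. Of the 9 hairpins 4 were called at an adjusted p under 0.05, where 36.3% of all genes tested were called. In replicate 1, 3 were higher and 1 lower, where the background was 20.6% higher and 15.7% lower. Among the 156 genes with at least 1000 reads in both libraries, 102 were called, or 65.4%.

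The miR-99/100 hairpins were the 3 called higher in replicate 1, by similar small amounts. The log2 ratio was 0.11 for Mir99a (95% exact interval 0.11 to 0.12), with an adjusted binomial p set to the lowest value given here, 1e-300. It was 0.13 for Mir100 (0.12 to 0.14), with an exact binomial adjusted p of 9.9e-146, and 0.13 for Mir99b (0.12 to 0.14), with an adjusted p of 1.2e-77 by the same exact test. These are differences of 8.05%, 9.30% and 9.42% in level.

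Mir125a was called lower in replicate 1, with a log2 ratio of -0.21 (-0.23 to -0.19) and an exact binomial adjusted p of 3.4e-75. Its level fell by 13.6%, the largest difference of the 9 hairpins. The other 5 hairpins were not called. Their log2 ratios were 0.05 for Mir125b-1, 0.04 for Mir125b-2, 0.03 for Mirlet7a-2, 0.02 for Mirlet7e and -0.09 for Mirlet7c-1, with adjusted p from 0.0608 to 0.774 by the exact binomial test. The lowest of these p was that of Mir125b-1. Mirlet7c-1 had an adjusted p of 0.0758, and 0.0198 to 0.0360 by the exact binomial test under other scalings and count minimums, where it was called lower. The median absolute log2 ratio was 0.09 for the 9 hairpins, 0.09 for the 156 genes with at least 1000 reads and 0.17 for all 427.

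Within the chromosome 17 cluster, the balance of hairpins shifted between the pools beyond counting error. Mir125a made up 20.3% of the cluster's reads in replicate 1 (exact interval 20.05 to 20.5) and 24.0% in replicate 2 (23.8 to 24.2). Mir99b made up 62.0% (61.7 to 62.3) and 58.1% (57.8 to 58.3), and Mirlet7e 17.7% (17.5 to 17.9) and 17.9% (17.7 to 18.1). With every gene assumed to vary by 0.1 of its level, the exact test of edgeR called 0 of the 9 hairpins, none of which had an unadjusted p under 0.05, and 6 of the 427 genes.

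**Figure D5:**
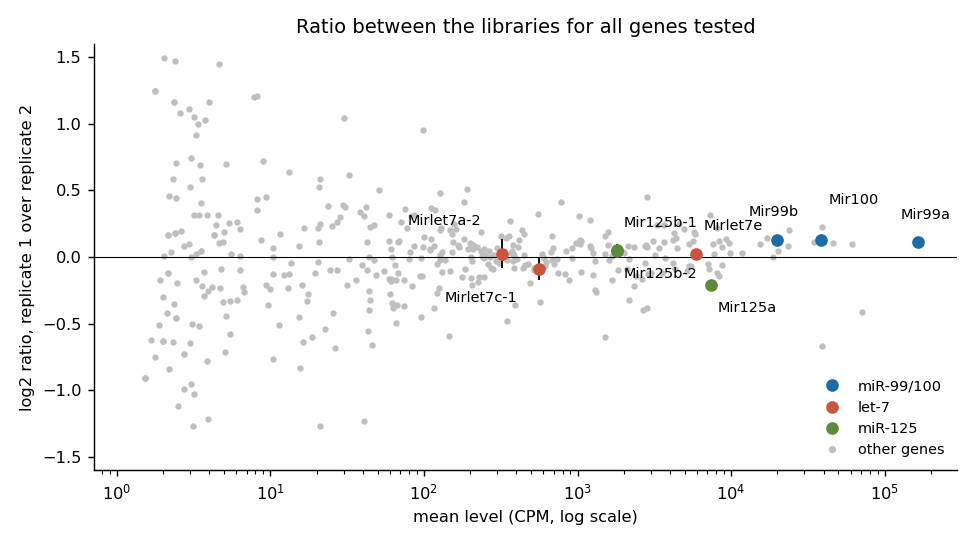
Log2 ratio of replicate 1 over replicate 2 against mean level (CPM, log axis) for the 9 hairpins, coloured by family with 95% exact intervals, and 418 other genes in grey, of which 9 lie beyond the axis limit of 1.6. Mir99a, Mir100 and Mir99b lie at 0.11 to 0.13, and Mir125a lies at -0.21.

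Related genes and markers were compared between the pools by the same binomial test, which covers counting error only. Over all 427 genes it called 20.6% higher and 15.7% lower in replicate 1. Among the 156 genes with at least 1000 reads in both libraries it called 65.4%. With variation of 0.1 assumed, the exact test of edgeR called 6 of the 427. Of the 8 other let-7 genes 5 were called higher in replicate 1 and 2 lower, with a median log2 ratio of 0.08. Mir10a and Mir10b, the kin of miR-99/100 in the Hox clusters, were both called lower, with log2 ratios of -0.41 and -0.67. Of the 9 neural microRNAs, all tested, 4 were called lower in replicate 1 (Mir137, Mir128-1, Mir128-2 and Mir9-3) and 1 higher (Mir149), with a median log2 ratio of -0.25. Of the 6 Hox cluster microRNAs 5 were tested and 4 called lower in replicate 1. Choroid plexus and ciliated epithelium microRNAs, at 0.558% and 0.713% of gene reads, were lower for 4 of 5 tested. Blood microRNAs, at 0.0394% and 0.0281%, were higher for 3 of 3, and mesenchymal microRNAs, at 0.658% and 0.588%, for 3 of 5, with none of either list at 0 in both libraries. Endothelial Mir126a, at 2.55% and 2.25%, was higher, and liver Mir122, at 0.00353% and 0.00567%, was lower. The part of these in the ratios of the 9 hairpins was not tested.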

How the data were processed

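The authors deposited 1 table of raw read counts per gene and library, aligned to mm10 (per the labels) and annotated with GENCODE M4 (per the deposited notes). Not given in the sources used here: aligner, trimming, counter. The columns hold counts for both strands, the gene's own strand and the opposite strand, read from their totals since the files have no header. Excluded from library sizes were 4 rows of totals without a gene: reads placed at several loci, unmapped reads (13.7% and 15.8%), reads outside genes (2.56% and 2.96%) and ambiguous reads (0). Symbols and positions came from GENCODE M21 on the same build, by identifier without version, for 1894 of 1973 rows. Sequences came from RefSeq tables (GRCm38.p6), and shared stretches from M21 transcripts, with copies outside annotated microRNA genes not searched.

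Counts were scaled to CPM, with TMM in edgeR 4.0.16 (R 4.3.3) for ratios and 0.5 read added to each count. Shares and ratios of reads have exact 95% intervals. edgeR's quasi-likelihood test needs replicates on each side, so the exact conditional binomial test replaced it. It was tested on simulated data first. Alternatives were DESeq2 1.42.0 size factors, total reads, other count minimums, both strands together, other denominators, edgeR's exact test at assumed variation, and leaving out each replicate. Python 3.11.15, scipy 1.17.1, pandas 2.3.3 and matplotlib 3.10.9 were used. All 9 hairpins are named, as are the 2 genes nearest in level to each cluster's highest hairpin and the 3 highest of each related list. The hairpins and lists were chosen with earlier results of these data known. The labels call the libraries biological replicates.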

Additional observations from a re-analysis of the deposited data

How the results depend on the processing

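The order of the hairpins within each cluster was the same per nucleotide of hairpin, with both strands together and without each replicate. Other denominators and library scalings cancel in a ratio within a library, so they cannot change this order. Counting the reads placed at several loci, which could change it, was not tried. Per nucleotide of hairpin, the folds became 429.8 for Mir99a over Mirlet7c-1, 100.1 for Mir99a over Mir125b-2, 4.29 for Mir125b-2 over Mirlet7c-1, 145 for Mir100 over Mirlet7a-2, 20.7 for Mir100 over Mir125b-1, 7.01 for Mir125b-1 over Mirlet7a-2, 4.48 for Mir99b over Mirlet7e and 1.70 for Mir125a over Mirlet7e. These shifts follow from the lengths of the hairpins. As shares of all reads, the clusters held 7.88% (chromosome 16), 1.92% (chromosome 9) and 1.56% (chromosome 17), by the larger denominator. With variation of 0.1 assumed for all genes, the exact test of edgeR called 6 genes (32 at an unadjusted p under 0.05) and 0 of the 9 hairpins, where the binomial test called 155 and 4. With 0.2 it called 0 genes (12 unadjusted) and 0 hairpins. Without a filter on low counts the log2 ratio of Mirlet7a-2 turned to -0.0036 and that of Mirlet7e to -0.0069, neither called. The ratio of TMM library sizes, replicate 1 over replicate 2, was 0.822 without the filter and 0.805 with it, which moves every log2 ratio by the same amount. Mirlet7c-1 was called with DESeq2 size factors, total reads, no filter, or 10 reads required in both libraries. The median range over clusters was 46.9-fold, and 74.1-fold with gaps of up to 60000 bases. No paired analysis was possible because the series holds 1 group. Counting error is widest for Mirlet7a-2, the least sequenced of the 9, and reads placed at several loci are missing from the 4 hairpins with a shared 5p sequence.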
